A study of Mus musculus with 8 samples.

Results

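Loops in chromatin pulled down with full-length REV-ERBα were compared in mouse liver at zeitgeber time 10 (ZT10, counted in hours from lights on). The protein had 2 sources in this series, the endogenous gene of knock-in mice and a viral construct. The comparison used 3 of the 8 libraries, namely the 1 knock-in library and both replicates labelled DKO_WT, which were chosen by their labels and not by any measured value. The knock-in genotype is REV-ERBa3HA/3HA, with the HA epitope on the animal's own protein and no virus given. DKO_WT livers came from REV-ERBaf/fREV-ERBbf/f mice given AAV8-TBG-Cre together with AAV8-TBG-3HA-REV-ERBa-WT. TBG is a promoter active in hepatocytes, so Cre and the tagged protein are driven in those cells while the other cells of the liver keep both floxed genes, and the viral protein is not under the rhythmic Nr1d1 promoter. All 3 samples were taken at ZT10 and precipitated with the same anti-HA beads. The labels do not say whether the DKO_WT replicates came from separate animals, so the spread between them may be technical, and the knock-in has no replicate.

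REV-ERBα, encoded by Nr1d1, is a nuclear receptor that lacks the activation helix of its relatives and represses transcription by recruiting the NCoR and HDAC3 corepressor complex. In the liver its abundance cycles with the clock, it represses Bmal1 (Arntl), Npas2 and other clock genes, and it restrains genes of lipid, bile acid and glucose metabolism. It binds as a monomer to an AGGTCA site preceded by an A/T-rich stretch, or as a pair of molecules to a repeat of that site. The assay, in-situ ChIA-PET, cuts and religates crosslinked chromatin inside nuclei before immunoprecipitation. Each sequenced pair whose mates fall on distant sequence, called a paired-end tag or PET, therefore marks 2 places that were neighbours in chromatin pulled down with the tagged protein, and a loop here is a pair of anchor intervals joined by at least 3 such PETs.

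The promoters that lay wholly inside the knock-in anchor of a loop found in both systems were read from RefSeq (GRCm38.p6, the coordinates of mm10). The DKO_WT anchors were not required to hold them. There were 21 of them, from 20 genes. The core letters of the receptor's element were searched on both strands as AGGTCA and, one letter longer and containing the first, as TAGGTCA. The shorter was in 2 of the 21 promoters (9.52%), those of Glyctk and Haao, and the longer in Glyctk alone. Of all 21263 RefSeq promoters of that length, 14.7% held AGGTCA and 2.32% held TAGGTCA. The sequences shown run 5′ to 3′ from 250 bases before to 50 after the annotated start. They are those of Npas2, whose start is joined in all 3 libraries, of Adra1b, which has loops of both systems in both replicates, and of Glyctk and Haao, in which capitals mark AGGTCA or its reverse complement TGACCT.
Npas2, chr1:39194022-39194321, plus strand: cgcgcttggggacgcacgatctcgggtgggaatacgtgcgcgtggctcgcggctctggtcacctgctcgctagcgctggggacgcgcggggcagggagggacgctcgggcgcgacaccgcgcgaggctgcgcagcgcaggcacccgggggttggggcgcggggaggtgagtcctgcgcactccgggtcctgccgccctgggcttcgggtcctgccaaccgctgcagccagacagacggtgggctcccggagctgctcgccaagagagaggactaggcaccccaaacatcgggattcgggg
Adra1b, chr11:43901188-43901487, minus strand: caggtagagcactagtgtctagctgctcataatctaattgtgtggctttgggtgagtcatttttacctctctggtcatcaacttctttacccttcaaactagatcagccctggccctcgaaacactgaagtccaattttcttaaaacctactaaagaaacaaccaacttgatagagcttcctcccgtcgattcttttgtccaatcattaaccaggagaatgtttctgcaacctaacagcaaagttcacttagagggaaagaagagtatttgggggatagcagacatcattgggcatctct
Glyctk, chr9:106158089-106158388, minus strand: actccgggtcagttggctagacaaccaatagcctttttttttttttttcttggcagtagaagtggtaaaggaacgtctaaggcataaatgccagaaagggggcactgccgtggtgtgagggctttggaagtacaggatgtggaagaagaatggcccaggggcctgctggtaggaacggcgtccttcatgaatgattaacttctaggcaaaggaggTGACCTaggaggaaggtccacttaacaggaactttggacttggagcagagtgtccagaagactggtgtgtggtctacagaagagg
Haao, chr17:83846741-83847040, minus strand: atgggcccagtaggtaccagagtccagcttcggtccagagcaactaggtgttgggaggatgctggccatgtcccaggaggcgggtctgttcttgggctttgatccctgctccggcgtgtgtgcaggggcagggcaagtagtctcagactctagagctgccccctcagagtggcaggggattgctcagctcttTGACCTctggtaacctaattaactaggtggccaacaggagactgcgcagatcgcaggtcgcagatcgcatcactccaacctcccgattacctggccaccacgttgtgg
The Npas2 and Adra1b promoters hold none of these letters in the window shown. At Npas2 the DKO_WT anchors of both replicates end at or before position 39193867, short of the printed bases, while both knock-in anchors cover them. The printed Glyctk bases likewise lie outside the DKO_WT anchor, chr9:106158480-106159586 in replicate 2. Those of Haao and Adra1b lie inside DKO_WT anchors of replicate 1, chr17:83846385-83847953 and chr11:43900574-43901623.

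The kept loop sets differed in depth and shape before any loop was compared. Among nuclear loops with both anchors at least 700 bp wide and a span under 2 Mb, with 3.1 to 3.3 Mb of chromosome 11 left out, 41273 remained in the knock-in, 1769 in DKO_WT replicate 1 and 1919 in replicate 2. They carried 267377, 5634 and 6321 PETs, and they were 71.3% of the nuclear loops listed in the knock-in and at most 5.70% of those in a DKO_WT replicate. The kept knock-in set thus holds 47.5 and 42.3 PETs for each PET of the replicates. Before these limits the lists held 57865, 31033 and 58102 nuclear loops, in the same order, with 320427, 104161 and 204018 PETs. The gap in kept PETs is therefore far wider than that in the full lists. Knock-in loops had a mean of 6.48 PETs and a highest count of 374, against means of 3.18 and 3.29 and a highest count of 10 in both replicates. Loops at the floor of 3 PETs made up 42.1% of the knock-in set and 85.6% and 80.4% of the DKO_WT sets. The median span was 31.1 kb in the knock-in and 12.9 and 14.7 kb in DKO_WT, and the median anchor 1243, 1000 and 996 bp wide. In the knock-in 4771 of 30269 merged anchors joined 5 or more loops, whereas no DKO_WT anchor joined more than 4. In these respects the replicates lay close to each other and apart from the knock-in. With 1 library against 2, no exact test over libraries can go below p = 0.333, and how far depth, the source of the protein or library preparation sets this gap was not tested.

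Hepatocyte genes were well covered in the knock-in, whose loops touched all 19 listed liver transcription factor genes and 21 of 23 genes of secreted hepatocyte proteins. Of all protein-coding genes 30.3% had a knock-in PET. Of the markers of other liver cells, none of 11 Kupffer cell genes, 1 of 11 stellate cell genes, 1 of 6 cholangiocyte genes (Sox9, with 32 PETs) and 1 of 5 lymphocyte genes (Cd4, with 6) had one there. Of 8 endothelial genes 5 did (62.5%), with a summed level of 1.91 per 10000 kept PETs. In DKO_WT neither hepatocyte list had a PET in either replicate, and of 41 marker genes of the other cells 1 did, the cholangiocyte gene Cftr with 3 in replicate 1. The DKO_WT sets are therefore too thin to check their cell type by these markers. In bulk liver, fewer cells holding the tag and fewer PETs per cell cannot be told apart.

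Few loops were found in both systems. Of the 41273 knock-in loops, 129 (0.313%, 95% Wilson interval 0.263 to 0.371%) had both anchors overlapping those of a loop in either DKO_WT replicate, 70 in replicate 1 and 63 in replicate 2. In the other direction 68 of 1769 loops of replicate 1 (3.84%, 3.04 to 4.84%) and 63 of 1919 of replicate 2 (3.28%, 2.57 to 4.18%) were found in the knock-in, so that the replicates gave shares within each other's intervals. These values rest on the minimum anchor width, and without it 297 knock-in loops and 0.587% of DKO_WT loops were shared. Intervals cover counting error alone and take PETs and loops as independent. The remaining 3557 DKO_WT loops and 41144 knock-in loops belonged to one system. The DKO_WT replicates shared even less with each other, 5 loops, or 0.283% of replicate 1 and 0.261% of replicate 2. Because the knock-in list is far longer than a replicate's, the shares were also taken against as many of the strongest knock-in loops as the other replicate lists, a comparison added after the data were seen. Then 37 loops of replicate 1 (2.09%, 1.52 to 2.87%) and 26 of replicate 2 (1.35%, 0.926 to 1.98%) were found. The lists then had equal length but not equal width, with a median shorter anchor of 3086 bp in knock-in loops of 20 or more PETs and 914 and 883 bp in DKO_WT loops of 3 PETs, so the knock-in side had more bases to overlap.

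Strong knock-in loops recurred more often. Of loops with 3 knock-in PETs, 16 of 17362 (0.0922%) were found in either replicate. The share was 0.197% at 4 to 5 PETs, 0.219% at 6 to 9 and 0.548% at 10 to 19, and it reached 3.02% (2.34 to 3.91%; 56 of 1852) at 20 or more. Both replicates showed the same order, with 1.94% and 1.30% in the strongest class. Of the 129 loops found, 56 were in that class. Loops found in both systems had a median of 13 knock-in PETs against 4 for the rest. Anchor width moves with strength, since the median shorter anchor is 942 bp at 3 PETs and 3086 bp at 20 or more, and a wider anchor has more bases to overlap. Among knock-in loops whose shorter anchor was under 2000 bp, the share was 0.144% at 3 to 9 PETs, 0.495% at 10 to 19 and 4.49% (2.19 to 8.97%; 7 of 156) at 20 or more. Within the strongest class it was 2.01% (1.37 to 2.93%) from 2000 to under 4000 bp and 5.72% (3.84 to 8.44%) at 4000 bp or more. These intervals did not overlap each other, while that of the anchors under 2000 bp overlapped both.

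**Figure D1:**
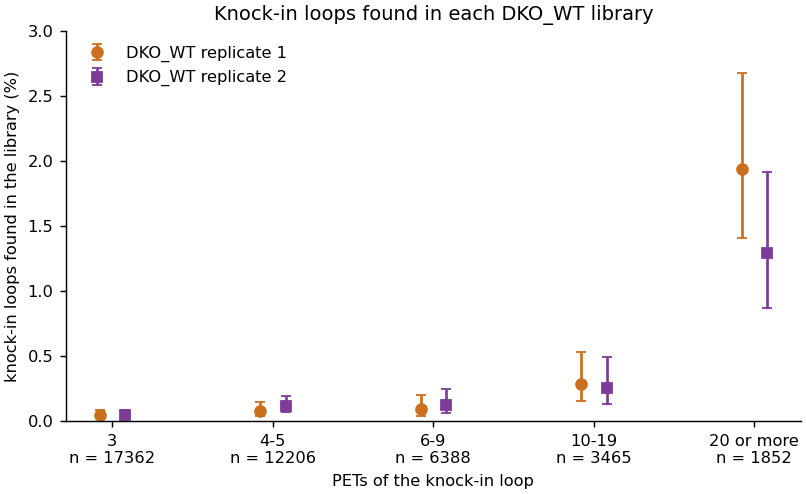
Share of knock-in loops found in each DKO_WT replicate (percent, y axis) by the number of PETs of the knock-in loop (x axis, with the number of loops in each class); points are shares and bars 95% Wilson intervals. In both replicates the share is highest for loops of 20 or more PETs, 1.94% and 1.30%.

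Even the strongest knock-in loops were mostly unlisted in DKO_WT. Suppose kept PETs were spread over loops in the knock-in's proportions. Then 24 knock-in loops of at least 143 PETs would average at least the floor of 3 PETs in replicate 1. In replicate 2 this holds for 34 loops of at least 127 PETs. Of these, 3 of 24 (12.5%) and 3 of 34 (8.82%) were found. Admitting DKO_WT loops with narrower anchors gave 6 and 5, although the 24 and 34 rest on kept PETs alone. Seen from the DKO_WT side, 1515 of the 1769 loops in replicate 1 (85.6%) and 1651 of 1919 in replicate 2 (86.0%) had neither anchor on any knock-in anchor. A further 8.71% and 9.22% had 1 anchor there, and 1.81% and 1.46% had both on anchors that the knock-in joins to other partners.

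Span and gene ends were compared next. By span, 0.470% of knock-in loops under 20 kb were found in either replicate, 0.269% of those from 20 to 100 kb, 0.118% of those from 100 to 500 kb and none of 295 longer ones. Seen from DKO_WT the order differed, since 2.62% of loops under 20 kb and 8.18% of those from 20 to 100 kb were found in the knock-in in replicate 1, and 3.18% and 3.85% in replicate 2. The loops found there had a median span of 20.7 and 17.7 kb, against 12.8 and 14.6 kb for the rest. A gene end here means either end of a protein-coding gene, with an anchor within 5 kb of it. Whether a knock-in loop touched a gene end made little difference to its share, which was 0.303% with no anchor at a gene end, 0.320% with 1 and 0.333% with both. For DKO_WT, loops found and not found in the knock-in differed. Of the 68 loops of replicate 1 found in the knock-in, 32 (47.1%, 35.7 to 58.8%) touched a gene end, against 331 of the 1701 not found (19.5%, 17.6 to 21.4%). In replicate 2 these were 32 of 63 (50.8%, 38.8 to 62.7%) and 375 of 1856 (20.2%, 18.4 to 22.1%). The intervals of found and not found loops did not overlap in either replicate, and the loops found had a share near the 48.0% of all kept knock-in loops. Both anchors of a found loop overlap those of a knock-in loop by the matching rule. The contrast can follow from that rule alone, and nothing further is read from it. The width of the DKO_WT anchors differed little between the classes, with a median shorter anchor of 960.5 and 915 bp in replicate 1 and 982 and 883 bp in replicate 2.

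**Figure D2:**
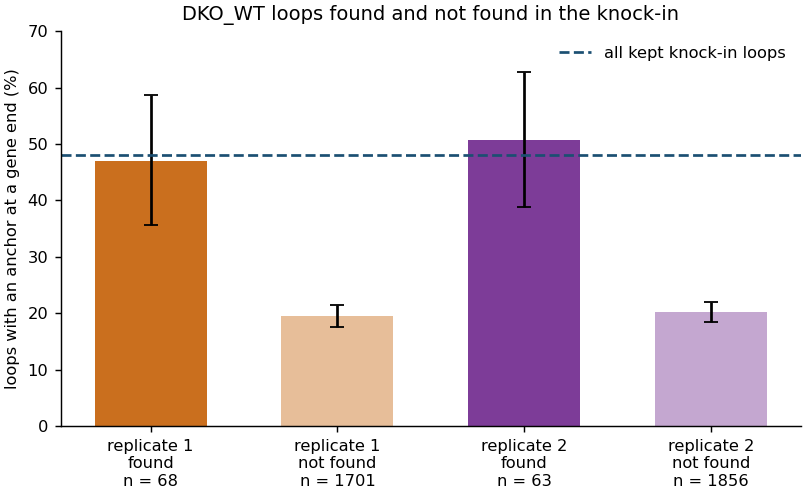
Share of DKO_WT loops with an anchor within 5 kb of a gene end (percent, y axis), for loops found and not found in the knock-in, in each replicate; bars are shares, error bars 95% Wilson intervals, and the dashed line is the 48.0% of all kept knock-in loops. Loops found in the knock-in stand at 47.1% and 50.8%, those not found at 19.5% and 20.2%. Found loops overlap both anchors of a knock-in loop by the matching rule.

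Other libraries measured the same way put these shares in context. Of the DKO_WT loops, 7 of replicate 1 (0.396%) and 8 of replicate 2 (0.417%) were found in the ZT22 knock-in library, which keeps 4689 loops and was taken when little REV-ERBα is present. The 2 libraries with the construct labelled delhIDR kept 743 and 262 loops, and 134 (18.0%) and 19 (7.25%) of these were in the ZT10 knock-in. These shares lie above both DKO_WT shares, but the smallest p an exact two-sided permutation test of 2 against 2 libraries can give is the one found, p = 0.333. Of the 129 loops of both systems, 3 were also in a delhIDR library, 9 in the ZT22 library and 118 in neither.

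Where several DKO_WT loops matched 1 knock-in loop, their PETs are given as a sum. Found in all 3 libraries were 4 knock-in loops, and 2 of them end at the start of Npas2, the gene of a partner of BMAL1 and a known target of REV-ERBα repression. One joined chr1:39023300-39028727 to chr1:39188587-39195197, which covers the Npas2 start, by 85 PETs in the knock-in, 5 in replicate 1 and 4 in replicate 2. The other joined chr1:39065398-39068593 to chr1:39191398-39194865 by 64, 5 and 6 PETs. Their far anchors are intergenic, between Pdcl3 and Npas2, and span 165.9 and 126 kb to the gene. In the upstream window drawn from 220 kb before the Npas2 start to 60 kb after it, which was chosen after the values were seen, the knock-in had 84 loops with 863 PETs. DKO_WT replicate 1 had 8 loops there with 29 PETs, of which 6 were loops of both systems, and replicate 2 had 5 with 19 PETs, of which 3 were. Of these, 2 further loops that end at the gene start, with knock-in spans of 49.6 and 36.2 kb, had 28 and 13 knock-in PETs, 3 and 4 in replicate 1 and none in replicate 2.

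**Figure D3:**
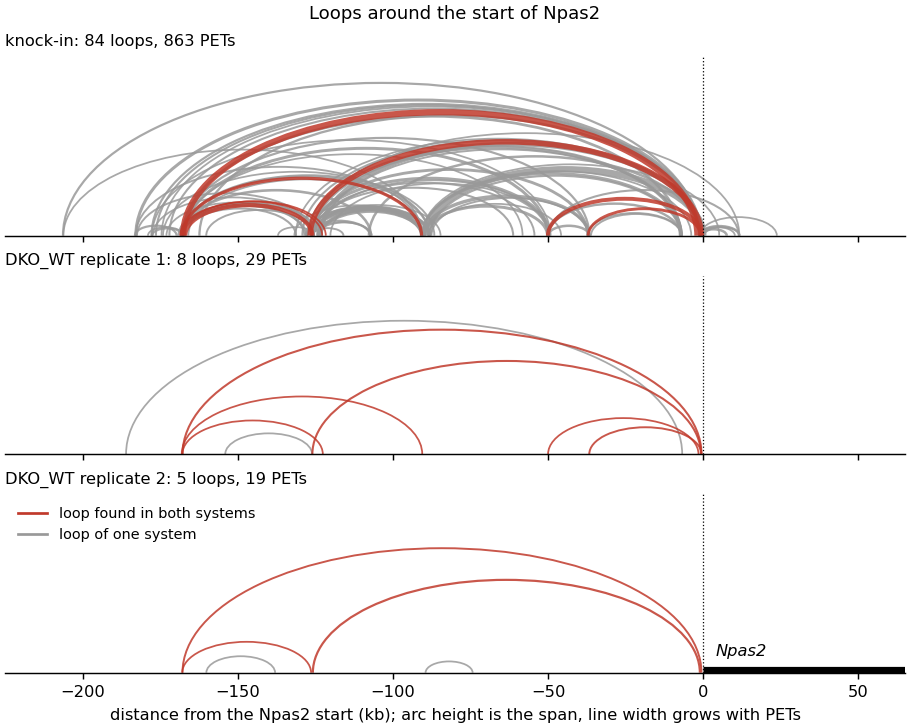
Kept loops around the Npas2 start in the knock-in (top) and DKO_WT replicates 1 and 2; the x axis is distance from the gene start in kb, each arc joins the centres of both anchors, arc height follows the span and line width grows with PETs. Red arcs are loops found in both systems, 8 of 84 in the knock-in, 6 of 8 in replicate 1 and 3 of 5 in replicate 2.

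The other pair of loops found in all 3 libraries lay elsewhere. The loop with most DKO_WT PETs joined 2 intergenic anchors, chr15:90341038-90348881 and chr15:90393227-90401815, by 173 PETs in the knock-in, 10 in replicate 1 and 8 in replicate 2, the last as 2 listed loops of 5 and 3. The nearest protein-coding genes are Alg10b, 110.5 kb from one anchor, and Cpne8, 85.7 kb from the other. At Rnf125, an E3 ubiquitin ligase gene on chromosome 18 (20944615 to 20987359), the loop of 10.4 kb from chr18:20930351-20937322 to chr18:20941432-20946957 had 141 PETs in the knock-in and 3 in each replicate. The replicates listed different loops there. Replicate 1 joined chr18:20936198-20937322 to chr18:20945527-20946486, and replicate 2 joined chr18:20932298-20933089 to chr18:20942680-20943788. These overlap the wide knock-in anchors, of 6971 and 5525 bp, but not each other.

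Examples of loops found in the knock-in and 1 replicate, chosen after their values were seen, follow. A loop from the lower-coordinate end of Rnf125, with most of that anchor outside the gene, to a place within it had 312 knock-in PETs, 6 in replicate 1, as 2 listed loops of 3 each, and none listed in replicate 2. At the start of Adra1b, the alpha-1B adrenergic receptor gene, a loop of 11.4 kb had 205 PETs in the knock-in, none in replicate 1 and 6 in replicate 2, and 2 others from the same start had 86 and 66 knock-in PETs with 3 and 4 in replicate 1. A loop from Dusp6, which encodes a phosphatase of the ERK kinases, had 151 and 3 PETs in the knock-in and replicate 1. One within Per2, a repressor of the clock, had 127 and 3. An intergenic loop beyond the 3′ end of Irs2, an insulin receptor substrate gene, had 127 and 4, and another that reaches the Irs2 start from an anchor there had 25 and 3. In replicate 2 a loop within Dnase2b had 101 knock-in and 4 DKO_WT PETs, and its knock-in anchor comes within 5 kb of the start of Uox, the urate oxidase gene, while the DKO_WT anchor does not. Loops at Mbl1, which encodes a mannose-binding lectin (39 and 6), and within Lpin1, a phosphatidate phosphatase gene (54 and 5), were listed in replicate 1. Most DKO_WT loops found in the knock-in were at the floor of 3 PETs, 49 of 68 in replicate 1 and 52 of 63 in replicate 2. So were most of those not found, 1466 of 1701 and 1490 of 1856.

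Genes were then compared by their PETs, counting for a gene every loop with an anchor within 5 kb of either end. Of 21887 annotated protein-coding genes, 6634 (30.3%) had a PET in the knock-in and 971 (4.44%) in either DKO_WT replicate, 462 in replicate 1 and 535 in replicate 2. Both systems had 423 genes in common (1.93% of all), which is 43.6% of the DKO_WT genes and 6.38% of the knock-in genes. The knock-in alone had 6211 genes and DKO_WT alone 548. A gene in common was seldom a loop in common. In 359 of the 423 genes no loop of one system matched a loop of the other, and 64 had PETs of both systems in matching loops. Of the DKO_WT genes, 906 of 971 had no more than 3 or 4 PETs. DKO_WT genes were more frequent among genes with many knock-in PETs, though not in steady steps. They were 3.59% of genes with none, 5.66% of those with 3, 5.20% with 4 to 9 and 5.89% with 10 to 29. The share was 7.49% with 30 to 99 and 11.9% (55 of 463) with 100 or more. The gene count depends on anchor width, since 4873 genes were in common when narrow anchors were admitted and 105 when anchors had to be at least 1000 bp.

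Npas2 was the gene with most DKO_WT PETs. It is at chromosome 1, 39193702 to 39363240, and had 462 PETs in the knock-in, 17 in replicate 1 and 10 in replicate 2, or 17.3, 30.2 and 15.8 per 10000 kept PETs. All of its DKO_WT PETs were in loops of both systems, but only 190 of its 462 knock-in PETs were. Its strongest knock-in loop, of 90 PETs, had no match in DKO_WT. The knock-in level lay between the replicates, and edgeR's quasi-likelihood test gave a log2 ratio of knock-in over DKO_WT of -0.40 (SE 1.07, adjusted p = 0.713), a direction that turned to 2.86 with narrow anchors admitted, to 3.76 with all nuclear PETs as library size and to 3.94 in DESeq2. Scaling by TMM gave -2.12, lower in the knock-in. In that fit the estimated spread between libraries (common dispersion) fell to 9.77e-05, against 0.842 in the main fit, so its error is not read.

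Adra1b (chromosome 11, 43774605 to 43901250) followed with 492, 7 and 6 PETs, or 18.4, 12.4 and 9.49 per 10000. Its fitted log2 ratio was 0.75 (SE 0.85, adjusted p = 0.576 by edgeR) and -0.97 under TMM. Rnf125 had 520, 6 and 3 PETs, or 19.4, 10.6 and 4.75 per 10000, with a log2 ratio of 1.35 (SE 1.25, adjusted p = 0.479 by edgeR) and -0.36 under TMM. For both genes the knock-in was above both replicates on the main scale by less than the test could separate. Mcm8, whose product is a helicase of DNA repair, had 311, 3 and 6 PETs, and its neighbour Fermt1, the kindlin-1 gene, 111, 3 and 3. The other 11 genes seen in all 3 libraries had 3 to 36 knock-in PETs and 3 to 5 in each replicate, among them Ttc39b with 29, 3 and 3, Anxa5 with 24, 4 and 3 and Vcan with 6, 5 and 3. None of these 11 had a DKO_WT PET in a loop of both systems, and at the knock-in's proportions under 1 PET would be expected in each replicate. Genes within 5 kb of the same anchor share PETs, as Anxa5 and 1810062G17Rik do.

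The genes with most knock-in PETs were those of fibrinogen. Fga, Fgb and Fgg encode the 3 chains of fibrinogen, the clotting protein that hepatocytes secrete, and lie together on chromosome 3 between 83007724 and 83049863. Fgg had 1194 PETs in the knock-in and none in either replicate, where the knock-in's proportions would give 25.2 and 28.2. Fga had 1019, 0 and 0, and Fgb 918, 0 and 0. Of the 463 genes with at least 100 knock-in PETs, 408 had no DKO_WT PET and 11.9% had one, against 6.38% of all knock-in genes. With narrow anchors admitted 177 of the 463 still had none, where 57.8% of all knock-in genes had one. The absence of DKO_WT PETs is thus the common case and not particular to genes with many knock-in PETs. The 3 fibrinogen genes are among the 463. These were the 3 genes called of the 23 that passed the filter on low counts (13.0%), with adjusted p of 0.00126 for Fga and Fgg and 0.00202 for Fgb by edgeR, all higher in the knock-in. All 3, like 14 of the 23, passed that filter through the knock-in library alone, so the call adds nothing to their counts. The 3 genes share loops, the strongest joining Fgg to Fga by 374 PETs, Fga to Fgb by 299 and Fgg to Fgb by 258, so they are 1 locus rather than 3 findings. Admitting narrow anchors gave 3 PETs at Fgg, 3 at Fga and 9 at Fgb in replicate 1 and none in replicate 2. The call was absent with a gene window of 2 or 25 kb, with narrow anchors, with anchors of at least 1000 bp, with TMM, with all nuclear PETs as library size, without the filter and in DESeq2.

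No gene was called lower in the knock-in by edgeR (0 of 23, 0.0%), and nothing is read from that 0, since 14 of the 23 had no DKO_WT PET and 22 of 23 were fitted higher in the knock-in. At an unadjusted p under 0.05 there were 4 genes, all higher in the knock-in, and DESeq2 called none among 1753 genes with an adjusted p while 1036 had an unadjusted p under 0.05, all higher in the knock-in. Of the 23 genes tested, 12 lay on chromosome 1. There the Ugt1a cluster, which encodes the UDP-glucuronosyltransferases that conjugate bilirubin and drugs, made up 9, with 749 PETs at Ugt1a1 (unadjusted p = 0.0498, adjusted p = 0.286 by edgeR) and 627 to 695 at the next 5 of these genes in rank, all without a DKO_WT PET. These genes share their last exons, and their PETs are largely the same. The test rests on 1 library against 2 and takes the knock-in to vary as the replicates do. In a simulation at the real depth 200 genes were changed 8-fold, of which 14 passed the filter and 1 was called.

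**Figure D4:**
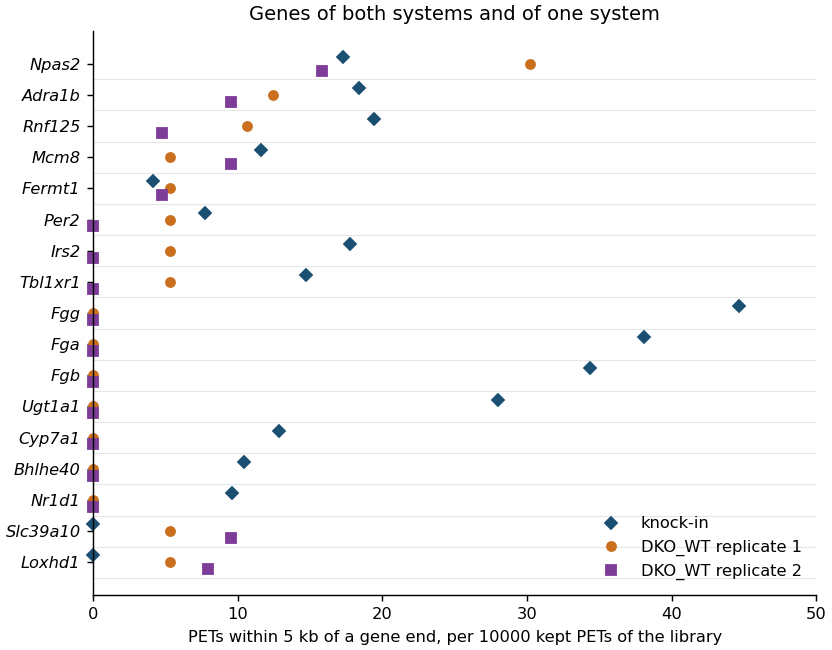
PETs within 5 kb of a gene's ends per 10000 kept PETs of each library (x axis) for genes of both systems, of the knock-in and of DKO_WT (y axis); diamonds are the knock-in, circles and squares DKO_WT replicates 1 and 2. Npas2 has the knock-in value between the replicates, and Fgg has 44.7 in the knock-in and none listed in either replicate.

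Among the strongest loops of one system, the knock-in also joined Slc34a2, a phosphate transporter gene, to an upstream anchor by 289 PETs, and 2 places within Prkce, a protein kinase C gene, by 251. Neither was listed in a DKO_WT replicate. On the DKO_WT side the strongest unmatched loops had 10 PETs, both in replicate 2. One lay within Hnf4g, a nuclear receptor gene, and spanned 10.4 kb, and the other joined intergenic places 1757 kb apart on chromosome 5. Intergenic loops of 155 kb on chromosome 2 in replicate 1 and of 1688 kb on chromosome 17 in replicate 2 had 9 each. The next had 8 each, all in replicate 2, and lay within Celf2, the gene of an RNA-binding protein (11.9 kb), and in intergenic places of chromosome 2 (18.2 kb) and chromosome 7 (9.72 kb). Of the 5 loops that both DKO_WT replicates listed, 3 were in the knock-in, both at Npas2 and the one on chromosome 15. The other pair, at the start of the zinc transporter gene Slc39a10 and within the adenylate cyclase gene Adcy8, had 3 PETs in replicate 1 and 3 and 4 in replicate 2.

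Genes seen in both DKO_WT replicates and not in the knock-in numbered 10, and they came with few PETs. Slc39a10 had 3 in replicate 1 and 6 in replicate 2, and Loxhd1 3 and 5. The other 8, Commd6, Fbxo11, Med12l, Nepn, Nudt14, Rps24, Spata1 and Tcea3, had 3 in each. With narrow anchors admitted 4 of the 10 had knock-in PETs, Tcea3 with 4 and Med12l, Nepn and Nudt14 with 3. In a single replicate the most were 7, at Myl1 in replicate 1 and at Lrrtm3, Pcdha8, Pcdha9, Ptx3 and Rsrc2 in replicate 2, where Pcdha8 and Pcdha9 share their PETs.

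The core clock list had the most DKO_WT PETs of the 17 lists. Of its 19 members 14 had PETs in the knock-in (73.7%, against 30.3% of all genes), 3 in replicate 1 and 1 in replicate 2 (15.8% in either, against 4.44%). The 3 of both systems were Npas2, Per2 and Cry2. Per2 had 207, 3 and 0 PETs, and Cry2, another repressor of the clock, 39, 3 and 0. The DKO_WT PETs of Per2 were in a loop of both systems, and those of Cry2 were not. The list's summed level was 67.0 per 10000 kept PETs in the knock-in, 40.8 (95% Poisson interval 25.9 to 61.3) in replicate 1 and 15.8 (7.59 to 29.1) in replicate 2, and Npas2 made up 17 of 23 and all 10 of the DKO_WT PETs. Other clock genes were in the knock-in alone. The repressor gene Bhlhe40 had 278 PETs there, Nr1d1 itself 256, the output regulators Hlf 167 and Nfil3 154, and Ciart 84. Lower counts were at Cry1 (67), Per1 (20), Bhlhe41 (10), Tef (7) and Dbp (3). Arntl, Clock, Nr1d2, Per3 and Rora had none in any library. The construct carries the coding sequence of Nr1d1, so PETs at Nr1d1 do not measure the floxed gene.

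Of the 11 corepressor genes all had PETs in the knock-in, against 30.3% of all genes, and 1 in DKO_WT, against 4.44%. That was Tbl1xr1, a subunit of the NCoR complex, with 394 PETs in the knock-in, 3 in replicate 1, in a loop of both systems, and none in replicate 2. Tle3, a Groucho-family corepressor gene, had 304 and no DKO_WT PET. All 19 liver transcription factor genes had knock-in PETs, with Bcl6 at 260 and Foxa2 at 251, and none had any in DKO_WT. Of 18 nuclear receptor genes 14 were in the knock-in, led by Thra with 257, which shares its PETs with the adjoining Nr1d1, and Nr1h4, the bile acid receptor gene, with 180. Vdr, the vitamin D receptor gene, was in replicate 1 alone, with 3. DKO_WT counts of 0 or 1 on lists of 11 to 19 genes lie near the 4.44% of all genes, and nothing is read from them.

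Metabolic lists are read against the 30.3% of all genes with a knock-in PET and the 4.44% with one in DKO_WT. Glucose genes had 16 of 17 members in the knock-in and a summed level of 88.3 per 10000, led by Irs2 with 475 PETs and the glycogen-targeting gene Ppp1r3b with 421, and Irs2 was the only member in DKO_WT, with 3 in replicate 1. Lipogenesis genes had 23 of 27 in the knock-in, with Insig2 at 251, and none in DKO_WT. Cholesterol and bile acid genes were all 21 in the knock-in, with Cyp7a1, which catalyses the first step from cholesterol to bile acids, at 343 and Apoa1 at 243, and Lss, the lanosterol synthase gene, was in both with 4, 0 and 3. Fatty acid oxidation genes were all 19 in the knock-in, with Acadm at 208 and Pdk4 at 207, and Cyp4a10 was in both with 36, 3 and 0. Xenobiotic genes had 17 of 18, and Ces1d was in both with 145, 0 and 3. Urea and amino acid genes had 13 of 14, with the histidase gene Hal at 299, and Otc, a urea cycle enzyme, was in both with 31, 0 and 3. The DKO_WT PETs of Otc, Irs2 and Ces1d were in loops of both systems, and those of Lss and Cyp4a10 were not. Acute-phase and complement genes had 17 of 19, with Saa1 at 311, and none in DKO_WT. Members that passed the filter were 3 secreted protein genes, all called, and 1 each of the core clock, glucose and xenobiotic lists, not called, so the other lists had no gene tested. Beside the 423 of 21887 genes in both systems (1.93%), each metabolic list had 0 or 1 such member, and that count supports no statement on a list.

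**Figure D5:**
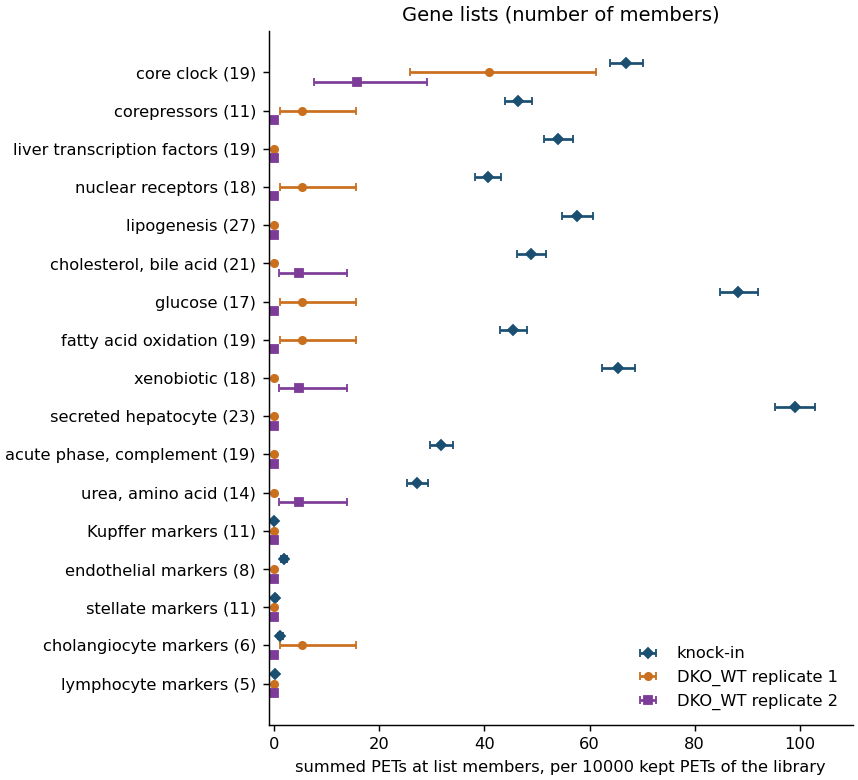
Summed PETs at the members of each gene list per 10000 kept PETs of the library (x axis), for the knock-in (diamonds) and DKO_WT replicates 1 and 2 (circles, squares); bars are 95% Poisson intervals, drawn where a PET is listed, and numbers in brackets are members. Core clock is the list with most DKO_WT PETs, at 40.8 and 15.8, and the secreted proteins have the highest knock-in level of these lists with none listed in DKO_WT.

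Promoters of the genes of both systems held the core letters at a share near that of all promoters. AGGTCA was in 48 of 412 promoters of these genes (11.7%, 8.90 to 15.1%), in 14.6% of those of the knock-in alone, 15.6% of those of DKO_WT alone and 14.7% of all. TAGGTCA was in 2.43%, 2.25%, 2.06% and 2.32%. The full response element with its A/T-rich lead was in 3 of the 412 (0.728%, 0.248 to 2.12%) against 33 of all 21263 (0.155%). It was in 0.156% of promoters of the knock-in alone and in none of DKO_WT alone. The higher share rests on 3 promoters and was not tested. The direct repeat was in none of the 21263 promoters, so its absence says nothing of these genes. These shares describe a window of 300 bases at the start and not the anchors as a whole.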

How the data were processed

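The authors deposited 1 file per library that lists pairs of anchor intervals on 1 chromosome with raw PET counts, not normalized and at least 3 per pair. The build is mm10, per the submitters' processing notes, and the aligner, duplicate filter and loop caller are not given in the sources used here. Anchor positions are as the files give them. Loops of both systems had both anchors overlapping by at least 1 bp. PETs were summed per RefSeq gene and tested with edgeR 4.0.16 (quasi-likelihood, filterByExpr, library size the kept PETs, Benjamini-Hochberg, threshold 0.05), with DESeq2 1.42.0 as an alternative, in R 4.3.3. Unlisted loops entered as 0, so fitted values against 0 are no folds. The gene test was tested on simulated data. At 100 times the knock-in's depth and a dispersion of 0.05 edgeR recovered 200 of 200 changed genes of 8-fold and called 4 of 6982 unchanged genes.

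Named genes followed a rule: up to 10 per direction by smallest p, 15 seen in all 3 libraries, 10 of each system alone, all core clock genes with PETs, and the leading 2 members and those with DKO_WT PETs of each other list. An item that the rule takes is not reported here. Named loops are those in all 3 libraries, the 5 strongest of each system alone, and examples from the shared ones chosen after their values were seen. The members and the 17 lists (266 entries, 1 matched by a synonym) were chosen with earlier results of these data known. The RefSeq promoter table holds 17492 of the genes.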

Additional observations from a re-analysis of the deposited data

How the results depend on the processing

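Without a minimum anchor width, 0.561% of knock-in loops (297 loops) and 0.587% of DKO_WT loops were found in both systems. With anchors of at least 1000 bp these were 0.188%, 49 loops and 4.66%, with anchors widened by 1 kb 0.720%, 297 loops and 4.93%, and with an overlap of 0.5 of the shorter anchor 0.245%, 101 loops and 2.93%. With loops of at least 5 PETs they were 0.0502%, 8 loops and 5.99%, and with the chromosome 11 region kept 0.416%, 172 loops and 5.25%. Leaving out each replicate gave 0.153 to 0.170%, 63 to 70 loops, 3.28 to 3.84% and 218 to 221 shared genes. No limit on span, or a limit of 100 kb, kept all 3 loop results within their spread. Genes in both systems numbered 201 with a 2 kb window, 1562 with 25 kb, 1061 with the gene body, 4873 with any anchor width and 105 with anchors of at least 1000 bp.

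The call of 3 genes became 8 with the gene body (5 higher, 3 lower in the knock-in), and 0 with a window of 2 kb or 25 kb, any anchor width, anchors of at least 1000 bp, all nuclear PETs as library size, no filter, DESeq2 and, added after the data were seen, loops of at least 5 PETs. Under TMM the calls changed to Eif1a higher and Npas2 lower, from a fit whose common dispersion fell to 9.77e-05, so they are not read. Under 2 of the alternatives run, no limit on span and the chromosome 11 region kept, and under a robust spread estimate added later, the calls were again Fga, Fgb and Fgg. The log2 ratio of Npas2 turned to 2.86 with any width, 3.76 with all nuclear PETs and 3.94 with DESeq2, and those of Adra1b and Rnf125 to -0.97 and -0.36 with TMM. The cause was not tested. Leaving out a DKO_WT replicate leaves no residual degree of freedom, so the gene test has no such value. No paired analysis was possible because the knock-in has 1 library and no replicate number to share with DKO_WT. The floor of 3 PETs limits every DKO_WT count.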
